A study of Homo sapiens with 15 samples.

Results

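Serum response factor (SRF) and 9 genes of the actin cytoskeleton were followed across 15 libraries of IGROV-CP20 cells, an ovarian cancer line that tolerates cisplatin. The 10 genes are SRF, ACTB, ACTG1, TAGLN, MYL9, MYH9, VCL, TPM1, CNN2 and FLNA, out of 47634 gene identifiers in each table, and all 10 were among the 11113 genes with enough counts to be tested. They were chosen by name because SRF was much lower with Amphotericin B and cisplatin than with cisplatin alone, so every value of that comparison is given here as a description, with no p-value, and supports nothing. The cisplatin libraries also entered that choice. Tests of SRF that use them, against untreated cells or against a drug with cisplatin, are therefore not independent of it.

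The study asked how 3 approved drugs act on cells that resist cisplatin, a platinum drug that damages DNA. Each of 5 conditions had 3 libraries labelled as biological replicates: untreated cells, cells exposed for 24 h to cisplatin at 50 µM, and cells pretreated for 24 h with 1 of the drugs at 10 µM and then exposed to the same cisplatin. The drugs were Tranilast, Telmisartan and Amphotericin B. Tranilast is an anti-allergic drug, Telmisartan blocks an angiotensin receptor, and Amphotericin B is an antifungal that binds membrane sterols. No drug was given without cisplatin, and a drug's effect cannot be told apart from the longer culture before cisplatin. RNA was read by QuantSeq, a method that counts reads near the 3′ ends of polyadenylated transcripts. Levels are given as CPM (library counts rescaled to a common total, with TMM factors), which compare a gene between libraries and not with other genes.

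SRF is a DNA-binding protein that recognises the CArG box, a motif of 2 C, 6 positions that are A or T, and 2 G. It works with partners of different kinds. The MRTF proteins bind actin monomers and move to the nucleus when actin polymerises, where they switch on cytoskeletal genes with SRF. The ternary complex factors (TCF), such as ELK1, answer to MAP kinases and switch on immediate early genes. SRF and several actin genes are themselves SRF targets, so the pathway can feed back on its own regulator.

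The letters of the motif are shown for the members whose promoter holds it, since this is the feature that ties them to SRF. The promoter window ran from 250 bases before to 50 bases after the start site in RefSeq on GRCh38.p14, and 7 members had an entry: SRF, ACTG1, MYH9, VCL, TPM1, CNN2 and FLNA. Each sequence is written 5′ to 3′ on the strand of its gene, with the CArG box in capitals. The SRF run lies on the plus strand of chromosome 6 at chr6:43171224-43171268 and ends on the base before the start site. The ACTG1 run is on the minus strand at chr17:81512869-81512908, the CNN2 run on the plus strand at chr19:1026504-1026543, and the FLNA run on the minus strand at chrX:154374704-154374743.
SRF: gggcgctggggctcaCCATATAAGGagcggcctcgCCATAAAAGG
ACTG1: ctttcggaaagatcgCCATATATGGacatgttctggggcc
CNN2: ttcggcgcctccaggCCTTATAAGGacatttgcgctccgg
FLNA: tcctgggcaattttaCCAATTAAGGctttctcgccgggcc

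SRF held 2 boxes with 10 bases between them, which began 30 and 10 bases upstream of the start site. In ACTG1 and FLNA the box began 94 bases upstream, and in CNN2 it began 89 bases upstream. Of the 7 member promoters 4 held at least 1 box on either strand, against 454 of all 35116 promoters of the same length (1.29%), and 11 of all promoters held 2 or more (0.0313%). Of 25 other cytoskeletal genes known as MRTF and SRF targets 3 held a box, as did 1 of 7 immediate early genes and 0 of 6 SRF cofactors. These matches describe letters in a window and not binding.

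Libraries held between 1510620 and 3517041 counts, and the 3 Amphotericin B libraries were the smallest. Replicates of a condition did not agree equally well. Cisplatin replicate 1 differed from replicates 2 and 3 by chi-square values of 26.4 and 43.1 per degree of freedom, and Telmisartan replicate 3 differed from replicates 1 and 2 by 37.8 and 44.2. The other pairs ranged from 2.24 to 8.07. The share of counts from the 2 mitochondrial rRNA genes split the same libraries: it was 13.7% in cisplatin replicate 1 against 5.61% and 3.41% in replicates 2 and 3, and 10.8% and 12.9% in Telmisartan replicates 1 and 2 against 3.61% in replicate 3. It lay between 12.3% and 14.8% with Amphotericin B, between 2.10% and 2.53% with Tranilast, and between 1.79% and 2.20% in untreated cells. Among markers of carcinoma epithelium KRT18, EPCAM and KRT8 were expressed, while KRT7 and PAX8 never passed 1 count and MUC16 never passed 4. Of 11 smooth muscle and fibroblast markers 4 had enough counts to be tested (ACTA2, CNN1, COL1A1, COL3A1), while MYH11 never passed 8 counts and DES never passed 2. The summed level of the 11 ran from 69.0 to 72.1 CPM in untreated libraries, 58.9 to 106 with cisplatin, 56.0 to 93.0 with Tranilast, 63.3 to 91.1 with Telmisartan and 86.6 to 100.3 with Amphotericin B, and ACTA2 averaged 9.32 CPM with Tranilast and 35.5 CPM with Amphotericin B. Their part in the results was not tested. Of 2 endothelial markers measured (VWF, CDH5) both were at 0, and CD3E of leukocytes was at 0. The leukocyte gene PTPRC was at 70.0 CPM in untreated cells and between 6.49 and 16.6 CPM in the treated conditions, and its part in these results was not tested.

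SRF RNA was 2.35-fold higher with cisplatin than in untreated cells. Its levels were 94.0, 82.3 and 113 CPM in untreated replicates 1 to 3 and 137, 293 and 247 CPM with cisplatin. They were 105, 119 and 128 CPM with Tranilast, 108, 133 and 114 CPM with Telmisartan, and 49.8, 56.9 and 51.4 CPM with Amphotericin B. Every cisplatin library lay above every library of the other 4 conditions, every Amphotericin B library lay below them all, and the Tranilast, Telmisartan and untreated libraries overlapped. The cisplatin difference was 1.23 on the log2 scale (SE 0.22, adjusted p = 0.000329 by the quasi-likelihood test of edgeR, adjusted over all genes tested after Benjamini and Hochberg), and it passed the threshold of 0.05 in all 23 alternative settings. SRF was chosen on a comparison that used these same cisplatin libraries, so neither this test nor its settings are independent of that choice. In a bulk sample, fewer cells that express a gene and less RNA of it per cell cannot be told apart.

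**Figure D1:**
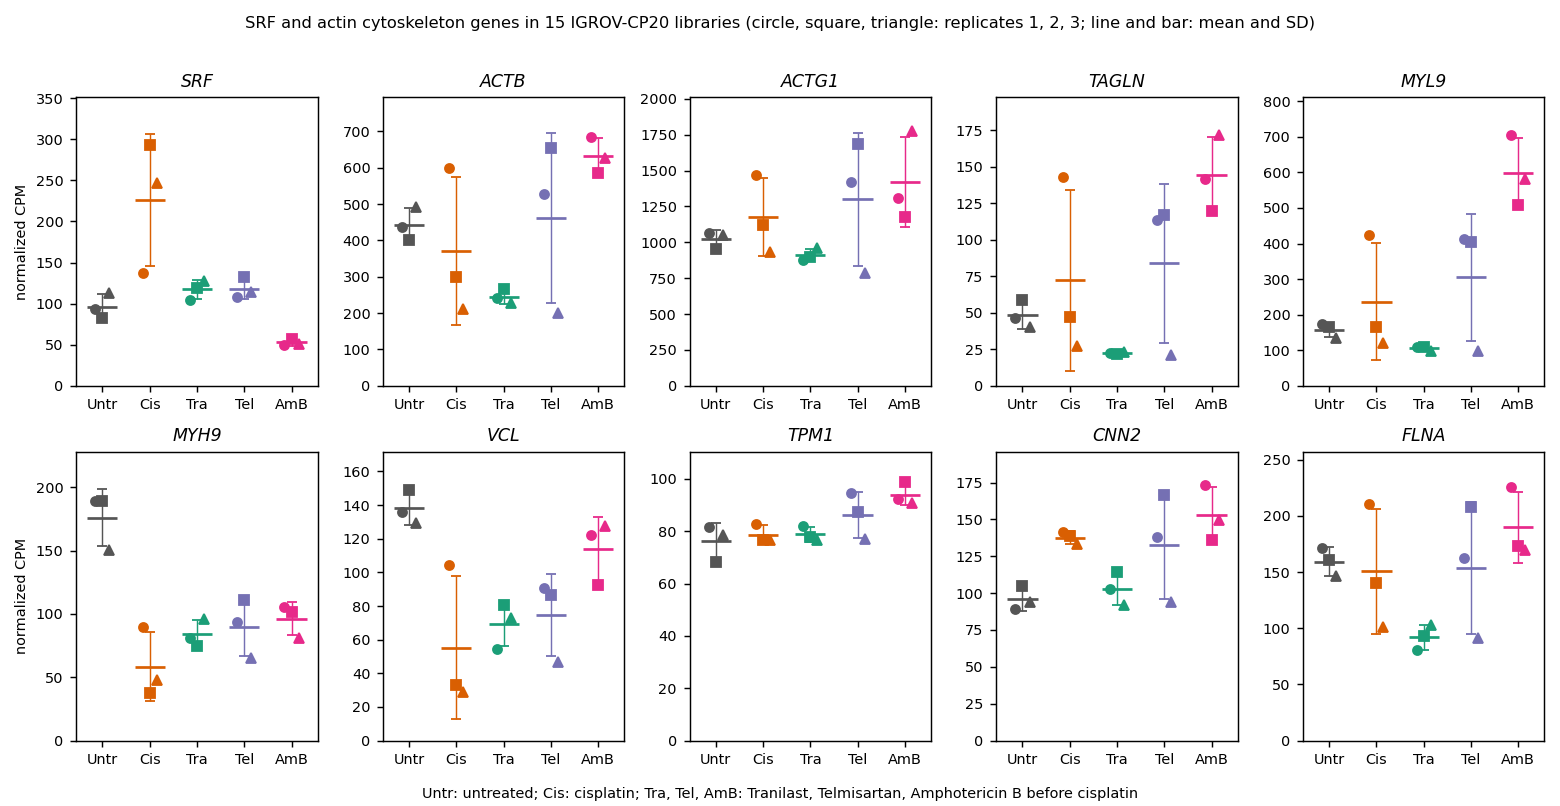
Normalized CPM (vertical axis, starting at 0) of each of the 10 genes in the 15 libraries, by condition, with circles, squares and triangles for replicates 1, 2 and 3 and a line and bar for the mean and SD. SRF is highest with cisplatin and lowest with Amphotericin B, whereas TAGLN and MYL9 average highest with Amphotericin B and split widely among the cisplatin and the Telmisartan replicates.

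With Tranilast before cisplatin SRF was 1.93-fold lower than with cisplatin alone (log2 -0.95, SE 0.22, adjusted p = 0.00721). This call was lost when libraries were scaled by their size only (log2 -0.55, adjusted p = 0.166). In this comparison the median log2 difference of all genes was 0.46 with that scaling and 0.023 with TMM factors. With Telmisartan SRF was 1.92-fold lower (log2 -0.94, 95% interval -1.41 to -0.47), a difference of nearly the same size that had an unadjusted p of 0.000514 and an adjusted p of 0.294. No gene passed the threshold in the Telmisartan comparison. There SRF passed with DESeq2 (adjusted p = 0.0281), and without cisplatin replicate 1 (log2 -1.16, adjusted p = 0.0030). Against untreated cells, SRF differed by 0.29 with Tranilast (adjusted p = 0.504) and by 0.29 with Telmisartan (adjusted p = 0.336), on the log2 scale. Between the drugs themselves, SRF differed by -0.0081 (95% interval -0.47 to 0.46).

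Amphotericin B and cisplatin left SRF at 52.7 ± 3.75 CPM (SD, n = 3), against 226 ± 80.2 CPM with cisplatin alone, 4.29-fold lower. This is the difference SRF was selected on. By the size of its fall it ranked 98 of 11113 genes. The level with Amphotericin B was 54.8% of that in untreated cells, 2.23-fold below Tranilast and 2.24-fold below Telmisartan.

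The RNAs of the SRF partners had orders of their own across the 5 conditions. MRTFA, which carries the actin signal to SRF, was 12.9 CPM on average in untreated cells, 2.70 with cisplatin, 10.4 with Tranilast, 5.13 with Telmisartan and 4.13 with Amphotericin B. It fell with cisplatin (log2 -2.30, SE 0.51, adjusted p = 0.00164) and was higher with Tranilast than with cisplatin alone (log2 2.01, SE 0.52, adjusted p = 0.0115). Its relative MRTFB fell with cisplatin from 5.74 to 1.49 CPM (log2 -1.97, adjusted p = 0.00609), and so did SCAI, a repressor of MRTF, from 3.30 to 1.04 CPM (log2 -1.74, adjusted p = 0.0366). Over the 15 libraries the lowest counts were 3 for MRTFA, 1 for MRTFB and 1 for SCAI. The cisplatin values of MRTFA, MRTFB and SCAI therefore rest on few counts, and so do the differences taken from them. SRF was thus highest in the condition with the lowest means of MRTFA, MRTFB and SCAI.

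The ternary complex factors ELK1, ELK3 and ELK4 did not pass in the cisplatin comparison, where their log2 differences were 0.43, -0.24 and -0.10. With Amphotericin B, ELK1 was at 8.44 CPM against 20.4 with cisplatin alone, and ELK4 at 14.2 against 24.2. SCAI averaged 6.23 CPM there, against 1.04 with cisplatin alone. MYOCD, the muscle form of MRTF, never passed 1 count.

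The cytoplasmic actins, which build the filaments of non-muscle cells, did not pass in any tested comparison in the fit of all 15 libraries with the filter and TMM factors, though in some alternative settings they did. ACTB encodes beta-actin. Its levels were 437, 402 and 493 CPM in untreated cells, 599.8, 299 and 212 CPM with cisplatin, and 242, 265 and 228 CPM with Tranilast. With Telmisartan they were 529, 654 and 201 CPM, and with Amphotericin B 685, 586 and 627 CPM. The cisplatin and Telmisartan libraries each spread over more than the whole untreated range, whereas every Tranilast library lay below and every Amphotericin B library above the untreated ones. ACTB differed from untreated cells by -0.86 on the log2 scale with Tranilast (95% interval -1.58 to -0.13, adjusted p = 0.151), and passed in 5 of 23 alternative settings, among them the 6 libraries of that comparison fitted alone (adjusted p = 2.71e-08) and no filter beyond 1 count (adjusted p = 0.00682). ACTB was called lower with cisplatin than in untreated cells in 3 of 23 settings: without cisplatin replicate 1 (log2 -0.81, adjusted p = 0.0445), with library size only (log2 -0.72, adjusted p = 0.0304) and with the mitochondrial rRNA covariate added after seeing the data (log2 -1.26, adjusted p = 2.28e-07).

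ACTG1, which encodes gamma-actin, moved less. It was at 1064, 953 and 1049 CPM in untreated cells, 1467, 1124 and 931 CPM with cisplatin and 876, 899 and 961 CPM with Tranilast. Telmisartan libraries held 1423, 1689 and 785 CPM, and Amphotericin B libraries 1309, 1175 and 1778 CPM. The cisplatin difference was 0.20 (95% interval -0.33 to 0.73) and the difference of Tranilast from cisplatin -0.36 (95% interval -0.90 to 0.17), both on the log2 scale. The 3′ ends of both actin RNAs can be told apart: in the last 500 bases of each member's transcript, none of the 426 windows of 75 bases, the read length, occurred in a transcript of another gene.

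TAGLN and MYL9, genes of the contractile apparatus, had the widest spread. TAGLN encodes transgelin, an actin-binding protein of smooth muscle and stromal cells. It was at 46.5, 58.7 and 39.97 CPM in untreated cells, 143, 47.1 and 27.0 CPM with cisplatin, and 22.7, 21.8 and 23.0 CPM with Tranilast. With Telmisartan it was at 113, 117 and 21.2 CPM, and with Amphotericin B at 142, 119.5 and 171 CPM. Each Tranilast library lay below every untreated and cisplatin library, while cisplatin replicate 1 stood at the level of the Amphotericin B libraries. Tranilast was 3.17-fold below cisplatin alone (log2 -1.66, SE 0.53, adjusted p = 0.0323). Without cisplatin replicate 1 this was -0.69 (adjusted p = 0.288). The call was lost in 8 of 23 alternative settings. Some of these kept that library: library size only (adjusted p = 0.0796), limma-voom (adjusted p = 0.116) and the 6 libraries of the comparison alone (adjusted p = 0.0513). The size and the call thus rested on that library and on the method. TAGLN overlaps PCSK7 on the opposite strand, which had 1332 counts over the 15 libraries against 2258 for TAGLN, and whether counting used the strand is not given in the sources used here.

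MYL9 encodes the regulatory light chain of non-muscle and smooth muscle myosin. Its levels were 173, 164 and 134 CPM in untreated cells, 424, 165 and 121 CPM with cisplatin, and 109.8, 110.4 and 97.9 CPM with Tranilast. Telmisartan gave 413, 404 and 98.8 CPM, and Amphotericin B gave 705, 508 and 581 CPM. The Amphotericin B libraries stood above all 12 others, and the Tranilast libraries stood below every cisplatin and untreated library. MYL9 was 2.23-fold lower with Tranilast than with cisplatin alone but missed the threshold (log2 -1.15, SE 0.43, adjusted p = 0.0605), which DESeq2 passed (adjusted p = 0.0362). Without cisplatin replicate 1 the difference was -0.42 (adjusted p = 0.434), and with the mitochondrial rRNA share as a covariate it was 0.10 (adjusted p = 0.725).

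MYH9, the heavy chain of non-muscle myosin IIA, differed from these. Untreated cells held 189, 189 and 150.2 CPM, and cisplatin-treated cells 89.6, 37.8 and 48.1 CPM. Levels were 81.1, 74.7 and 96.4 CPM with Tranilast, 93.4, 111 and 65.2 CPM with Telmisartan, and 105, 102 and 81.2 CPM with Amphotericin B. All 12 libraries that received cisplatin lay below all 3 untreated libraries. MYH9 was 3.03-fold lower with cisplatin (log2 -1.60, SE 0.27, adjusted p = 0.000160), 2.09-fold lower with Tranilast and cisplatin (log2 -1.07, SE 0.26, adjusted p = 0.0144) and 1.97-fold lower with Telmisartan and cisplatin (log2 -0.98, SE 0.26, adjusted p = 0.00936), each against untreated cells. The cisplatin and Telmisartan calls held in all 23 alternative settings, while the Tranilast call was lost in 4 of 23, each leaving out 1 library, with an adjusted p of at most 0.0818.

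CNN2 encodes calponin 2, which binds actin and restrains myosin. It was at 88.9, 105 and 93.7 CPM in untreated cells and at 141, 139 and 133 CPM with cisplatin, 2 groups that did not overlap. With Tranilast it was at 103, 114 and 92.1 CPM, with Telmisartan at 138, 167 and 93.9 CPM, and with Amphotericin B at 174, 136 and 149.8 CPM. The rise with cisplatin was 1.43-fold (log2 0.52, SE 0.19, adjusted p = 0.0355). The call was lost in 9 of the 23 alternative settings, among them each fit without an untreated or a cisplatin library, with adjusted p between 0.0100 and 0.503 over all settings. TPM1, a tropomyosin that lies along the filament, stayed between 68.2 and 98.7 CPM over all 15 libraries, and its cisplatin difference was 0.046 on the log2 scale (95% interval -0.28 to 0.37).

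VCL and FLNA link filaments to adhesions and to each other. VCL encodes vinculin, which couples actin to focal adhesions. It was at 136, 149 and 129 CPM in untreated cells and at 104, 32.9 and 28.6 CPM with cisplatin. Levels were 54.7, 80.4 and 72.9 CPM with Tranilast, 90.8, 86.7 and 46.8 CPM with Telmisartan, and 122, 92.2 and 127 CPM with Amphotericin B. Every library that received cisplatin lay below the untreated ones. The fall with cisplatin was 2.53-fold (log2 -1.34, SE 0.36, adjusted p = 0.00629) and passed in all 23 alternative settings, its size ranging from -2.37 to -1.02. VCL overlaps AP3M1 on the opposite strand, with 254 counts against 3506 for VCL.

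FLNA encodes filamin A, which crosslinks filaments into networks. Its levels were 172, 161 and 146 CPM in untreated cells, 211, 140.3 and 101 CPM with cisplatin, and 80.8, 92.7 and 103 CPM with Tranilast. With Telmisartan they were 162, 208 and 91.1 CPM, and with Amphotericin B 226, 173 and 169.9 CPM. Tranilast libraries lay below all untreated libraries and overlapped the cisplatin ones. FLNA was 1.63-fold lower with Tranilast than with cisplatin alone (log2 -0.70, SE 0.27, adjusted p = 0.0689) and 1.73-fold lower than in untreated cells (log2 -0.79, SE 0.27, adjusted p = 0.0793), and neither passed. The difference from cisplatin passed in 4 of 23 alternative settings, with adjusted p from 0.0186 to 0.753, and was -0.37 without cisplatin replicate 1. The difference from untreated cells passed in 6 of 23, with adjusted p from 8.64e-07 to 0.297.

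Over the comparisons the members can be read against all genes. Cisplatin lowered 2 of 10 members (MYH9, VCL) and raised 2 (SRF, CNN2), where 23.6% of all genes tested were lower and 21.1% higher, and the median log2 difference was 0.12 for the members and -0.015 for all genes. Tranilast lowered 2 (SRF, TAGLN) and raised 0 relative to cisplatin, where 11.6% of all genes were lower and 10.5% higher, and the medians were -0.51 and 0.023. With Telmisartan 0 members and 0% of all genes passed in either direction against cisplatin, although 1150 genes had an unadjusted p under 0.05, SRF and MYH9 among them. DESeq2 called 42 genes lower and 13 higher there, and edgeR without cisplatin replicate 1 called 244 lower and 301 higher. Without that library, MYH9 and VCL were called higher than with cisplatin alone, both with Tranilast (log2 0.98 and 1.20, adjusted p = 0.00585 and 0.00404) and with Telmisartan (log2 1.09 and 1.31, adjusted p = 0.0150 and 0.0140).

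Against untreated cells 1 member, MYH9, was lower with Tranilast (5.66% of all genes lower, 2.44% higher) and 1, again MYH9, with Telmisartan (15.8% lower, 12.8% higher). The Tranilast libraries lay wholly below the untreated ones for 6 of 10 members (ACTB, TAGLN, MYL9, MYH9, VCL, FLNA), as they did for 25.1% of all genes. Between Tranilast and Telmisartan 0 members passed (1.75% of all genes lower, 0.585% higher), with TAGLN at log2 -1.87 (adjusted p = 0.0613) and MYL9 at -1.52 (adjusted p = 0.0618) nearest to the threshold. Without Telmisartan replicate 3, 4 members were higher with Telmisartan than in untreated cells (ACTG1, TAGLN, MYL9 and CNN2, log2 0.60 to 1.38), 4 were lower with Tranilast than in untreated cells, and 6 members were lower with Tranilast than with Telmisartan, TAGLN at -2.35 and MYL9 at -1.94. In that fit the calls over all 11328 genes tested rose as well, to 2308 lower and 1874 higher for Telmisartan against untreated cells, 882 lower and 444 higher for Tranilast against untreated cells, and 1453 lower and 1307 higher for Tranilast against Telmisartan. These comparisons share libraries, so their values are not independent of each other.

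**Figure D2:**
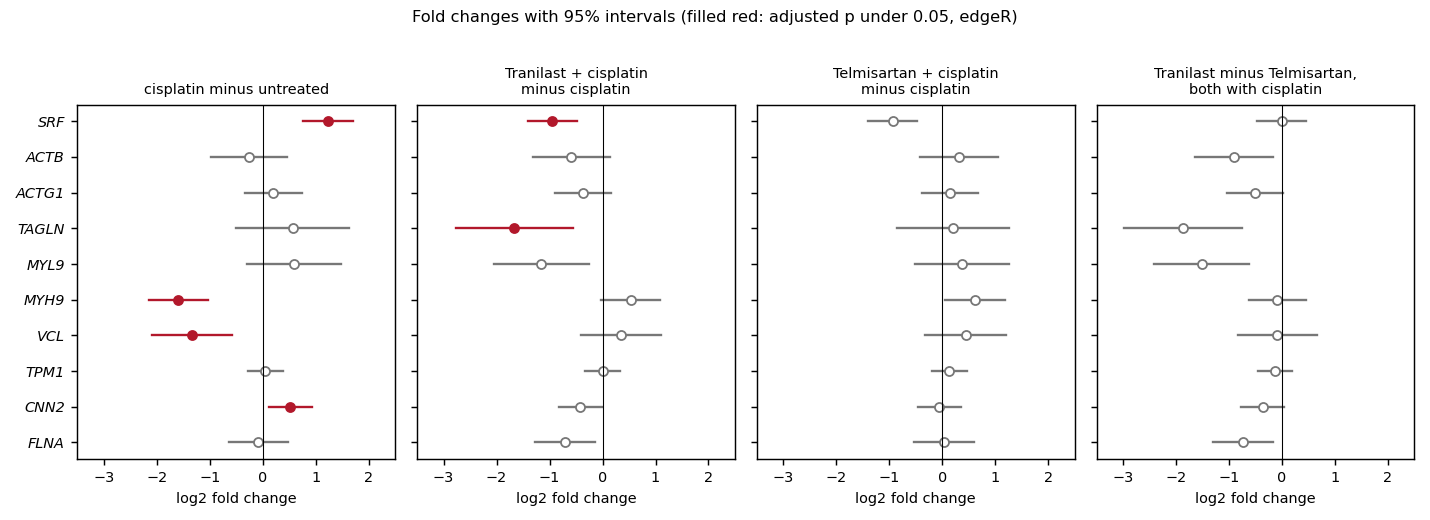
Log2 fold changes (horizontal axis) of the 10 genes with 95% intervals in 4 comparisons, with filled red points for an adjusted p under 0.05. Cisplatin against untreated cells has 4 filled points, SRF and CNN2 to the right and MYH9 and VCL to the left, Tranilast against cisplatin has SRF and TAGLN to the left, and the other panels have none.

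With Amphotericin B, 9 of 10 members averaged higher than with cisplatin alone and SRF lower. The log2 differences were 1.34 for MYL9, 1.07 for VCL, 1.01 for TAGLN, 0.77 for ACTB and 0.73 for MYH9. They were between 0.16 and 0.34 for CNN2, TPM1, ACTG1 and FLNA. With the mitochondrial rRNA share as a covariate, added after seeing the data, 5 of these 9 turned lower: ACTB was at -0.023, ACTG1 at -0.26, TAGLN at -0.12, CNN2 at -0.12 and FLNA at -0.22, and MYL9 was at 0.38. With library size only, CNN2 turned to -0.054. As a description only, 1 member lay past the threshold on the lower side (SRF) and 1 on the higher (MYL9), beside 9.01% and 4.21% of all genes, and nothing is read from these counts because the comparison chose the genes. Against untreated cells MYL9 was at 1.93, TAGLN at 1.58, CNN2 at 0.68, SRF at -0.87 and MYH9 at -0.87. The means of ACTB, ACTG1, TAGLN, MYL9, TPM1, CNN2 and FLNA were highest in this condition, while MYH9 and VCL averaged below their untreated levels. SRF was chosen for its low level here, so nothing is read from its order against these genes. All Amphotericin B libraries also had a high mitochondrial rRNA share, and its part was not tested.

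The members also differed between replicates of one condition. In cisplatin replicate 1, compared with the mean of replicates 2 and 3, TAGLN was 3.85-fold, VCL 3.39-fold, MYL9 2.96-fold, ACTB 2.34-fold and MYH9 2.09-fold higher. SRF was 1.97-fold lower there. In the mean of Telmisartan replicates 1 and 2, compared with replicate 3, TAGLN was 5.44-fold, MYL9 4.13-fold, ACTB 2.94-fold and FLNA 2.03-fold higher, and SRF differed by 1.05-fold. Thus 5 of 10 members were at least 2-fold higher in the first split and 4 of 10 in the second, where 12.9% and 11.4% of all genes were. No test applies to single libraries chosen for standing apart.

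**Figure D3:**
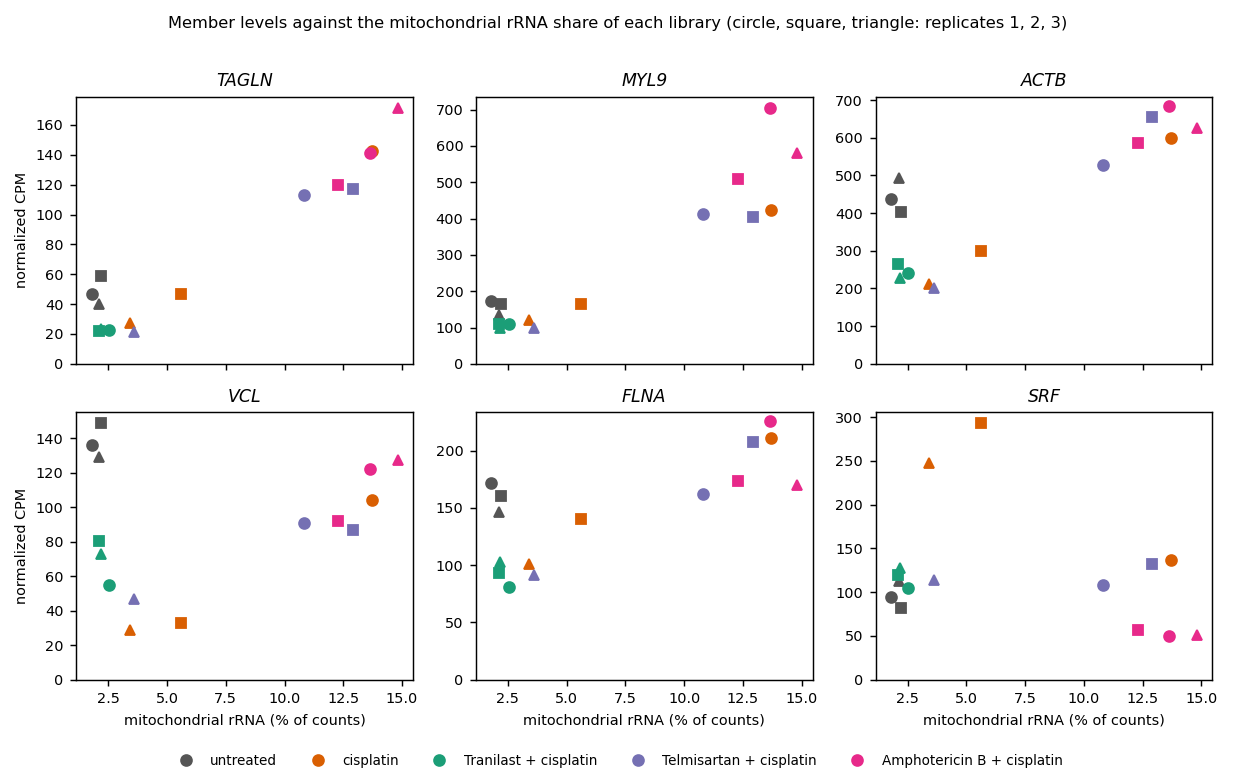
Normalized CPM (vertical axis) of TAGLN, MYL9, ACTB, VCL, FLNA and SRF against the share of counts from the mitochondrial rRNA genes (horizontal axis, percent) in the 15 libraries, colored by condition. TAGLN and MYL9 lie high in the 6 libraries with a share of at least 10.8% and low in the 9 with a share of at most 5.61%, while SRF in the Telmisartan libraries does not follow the share.

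These 6 libraries, cisplatin replicate 1, Telmisartan replicates 1 and 2 and the 3 Amphotericin B libraries, held the highest levels of TAGLN and MYL9. TAGLN ran from 113 to 171 CPM in them and from 21.2 to 58.7 CPM in the other 9, and MYL9 from 404 to 705 against 97.9 to 173 CPM. SRF in the same 6 libraries ran from 49.8 to 137 CPM and in the other 9 from 82.3 to 293 CPM. A fit with the share as a covariate, added after seeing the data, gave a cisplatin difference of -1.14 for TAGLN (adjusted p = 7.47e-05) and -0.72 for MYL9 (adjusted p = 0.00286), where the fit without it had given 0.56 and 0.59. The same covariate gave a difference of Tranilast from cisplatin of -0.012 for TAGLN. The same split held for ACTB (529 to 685 against 201 to 493 CPM), ACTG1 (1175 to 1778 against 785 to 1124 CPM) and TPM1 (82.9 to 98.7 against 68.2 to 81.9 CPM). Levels of SRF, CNN2 and FLNA overlapped between these sets of libraries. MYH9 and VCL were highest in the untreated libraries, where the share was at most 2.20%. Among libraries that received cisplatin, VCL ran from 86.7 to 127 CPM in the 6 and from 28.6 to 80.4 CPM in the others. MYH9 overlapped there. The part of the share in these differences was not tested.

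The other genes of the pathway were described from lists that overlap no member. Among 24 tested cytoskeletal targets of MRTF and SRF, cisplatin lowered 8 and raised 4, beside 23.6% and 21.1% of all genes, with a median log2 difference of -0.036. MYL6, the essential myosin light chain, rose from 156 to 627 CPM (log2 2.003, adjusted p = 6.90e-05), TAGLN2 rose from 102 to 235 CPM (log2 1.20, adjusted p = 3.36e-05) and MYH10, the heavy chain of myosin IIB, fell from 179.8 to 67.8 CPM (log2 -1.42, adjusted p = 0.000513). Tranilast lowered 4 and raised 2 relative to cisplatin, beside 11.6% and 10.5% of all genes. MYL6 was at 194 CPM (log2 -1.70, adjusted p = 0.00198), TPM2, a tropomyosin, fell from 499 to 209.6 CPM (log2 -1.25, adjusted p = 0.00642) and LIMA1, a filament-bundling protein, rose from 25.4 to 45.7 CPM (log2 0.84, adjusted p = 0.0185). MYL6 and TPM2 were also the 2 genes of the list that passed between Tranilast and Telmisartan, at log2 -1.60 and -1.33 (adjusted p = 0.0412 for both), beside 1.75% of all genes lower and 0.585% higher.

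Against untreated cells, MYLK, the kinase of myosin light chains, was lower with Tranilast and cisplatin (1.01 CPM, few counts, log2 -2.95, adjusted p = 0.0102). TAGLN2 was higher there (log2 0.68, adjusted p = 0.0142). MYLK averaged 7.65 CPM in untreated cells and already 2.06 CPM with cisplatin alone. TAGLN2 averaged 102 CPM in untreated cells, 235 CPM with cisplatin alone and 164 CPM with Tranilast and cisplatin. With Telmisartan and cisplatin 2 were lower and 4 higher than in untreated cells, beside 15.8% and 12.8% of all genes. These were led by TAGLN2 (log2 1.09, adjusted p = 0.000174), MYL6 (log2 1.90, adjusted p = 0.000246) and TPM2 (log2 1.32, adjusted p = 0.00267). Levels of TAGLN2, MYL6 and TPM2 were 235, 627 and 499 CPM with cisplatin alone, and 218, 586 and 526 CPM with Telmisartan and cisplatin.

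**Figure D4:**
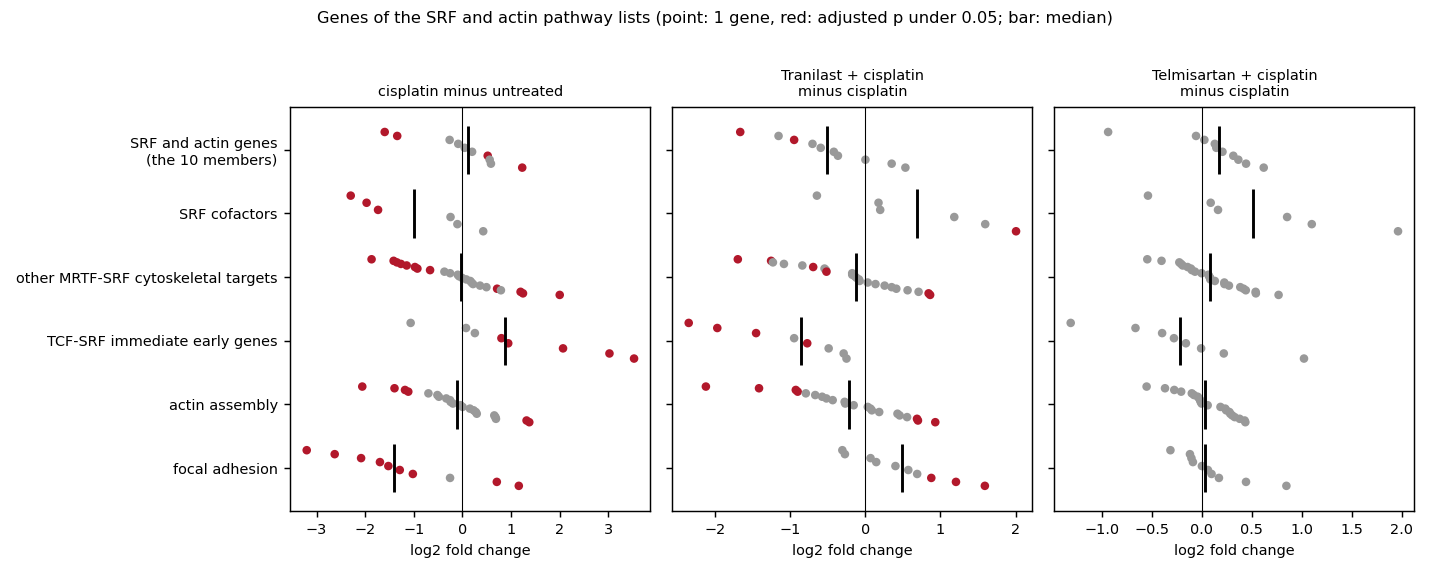
Log2 fold changes (horizontal axis) of single genes in the members and 5 pathway lists (rows), in 3 comparisons, with red points for an adjusted p under 0.05 and a black bar for the median. With cisplatin the immediate early genes have a median of 0.87 and the focal adhesion genes one of -1.41, and with Tranilast against cisplatin the medians are -0.86 and 0.49.

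The immediate early genes that SRF drives with the ternary complex factors were higher with cisplatin in most cases. Of 8 tested, 5 rose and 0 fell (median log2 0.87), beside 21.1% and 23.6% of all genes, among them FOSB from 4.87 to 40.05 CPM (log2 3.03, adjusted p = 8.02e-06), NR4A1 from 0.81 to 9.33 CPM (log2 3.53, adjusted p = 0.000254) and IER2 from 278 to 534 CPM (log2 0.94, adjusted p = 0.00135). With Tranilast 4 were lower than with cisplatin alone and 0 higher (median -0.86), beside 11.6% and 10.5% of all genes: FOSB was at 7.96 CPM (log2 -2.35, adjusted p = 0.00114), IER2 at 313 CPM (log2 -0.77, adjusted p = 0.0128) and NR4A1 at 3.48 CPM (log2 -1.45, adjusted p = 0.0441). The untreated level of NR4A1 rests on few counts. EGR1, named after its values were seen, went the other way with cisplatin, from 87.0 to 42.2 CPM, and did not pass (log2 -1.07, adjusted p = 0.0659). In these 3 genes and in SRF the Tranilast mean lay between the untreated and the cisplatin means. With Telmisartan 5 were higher and 0 lower than in untreated cells, beside 12.8% and 15.8% of all genes. Among them were FOSB, NR4A1 and FOS with log2 differences of 2.36, 3.14 and 3.09 (adjusted p = 0.000156, 0.00154 and 0.00247). FOS and FOSB were lower with Tranilast than with Telmisartan (log2 -2.99 and -1.68, adjusted p = 0.0412 for both).

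Of 22 actin assembly genes, cisplatin lowered 4 and raised 2, beside 23.6% and 21.1% of all genes. The 2 that rose were subunits of the Arp2/3 complex, which nucleates branched filaments: ARPC5 (log2 1.32, adjusted p = 2.89e-05) and ARPC5L (log2 1.38, adjusted p = 9.05e-05). ENAH, which promotes filament growth at their ends, fell from 2306 to 553 CPM (log2 -2.06, adjusted p = 3.77e-05). Tranilast lowered 4 and raised 3 relative to cisplatin, beside 11.6% and 10.5% of all genes, with ARPC5 at -0.92 (adjusted p = 0.00300), ARPC5L at -0.90 (adjusted p = 0.00721) and TMSB10, an actin monomer-binding peptide, at -1.41 (adjusted p = 0.0107). Against untreated cells 2 were lower with Tranilast, ENAH (log2 -1.13, adjusted p = 0.0170) and the filament-severing GSN (log2 -0.97, adjusted p = 0.0379), beside 5.66% of all genes. In the same way 3 were lower and 2 higher with Telmisartan, beside 15.8% and 12.8%.

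Focal adhesion genes, to which vinculin belongs by function, fell with cisplatin in 7 of 10 cases and rose in 2 (median log2 -1.41), beside 23.6% and 21.1% of all genes. The integrin ITGAV fell from 755 to 82.7 CPM (log2 -3.20, adjusted p = 2.22e-05), the kinase PTK2 from 56.3 to 9.34 CPM (log2 -2.63, adjusted p = 3.22e-05) and the integrin ITGB1 from 151 to 36.0 CPM (log2 -2.09, adjusted p = 6.73e-05). Tranilast raised 3 of the 10 relative to cisplatin and lowered 0, beside 10.5% and 11.6% of all genes: PTK2 to 27.2 CPM (log2 1.59, adjusted p = 0.00663), FERMT2 to 45.5 CPM (log2 0.88, adjusted p = 0.00888) and ITGA5 to 13.3 CPM (log2 1.21, adjusted p = 0.0258). ITGAV, ITGB1 and PTK2 were still lower than in untreated cells with Tranilast (log2 -2.63, -1.39 and -1.04, adjusted p = 0.000655, 0.00654 and 0.0453), beside 5.66% of all genes. Also against untreated cells, 7 of the 10 were lower with Telmisartan, beside 15.8% of all genes, and there ITGAV was at -3.31 (adjusted p = 6.17e-05). No gene of these lists passed between Telmisartan and cisplatin.

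Patterns like that of SRF over the 5 condition means were looked for among the 8545 genes that averaged 3 or more in log2 CPM, by the root mean square difference after centring each gene. The nearest were ZNF317, a zinc finger gene, at 0.061, CLN8 at 0.11 and KCTD2 at 0.13 on the log2 scale. ZNF317 averaged 11.4 CPM in untreated cells, 27.1 with cisplatin, 14.3 with Tranilast, 16.0 with Telmisartan and 6.65 with Amphotericin B, the same order of conditions as SRF. The other 9 members ranked from 4436 for TPM1, 4463 for CNN2 and 4931 for ACTG1, near the middle of the 8545, to 8374 for MYL9. The 5 means include those on which SRF was chosen, so these distances are a description and support nothing.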

How the data were processed

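The authors deposited 1 table per library of raw counts, whole and not normalized, for each Ensembl identifier. The submitters' processing notes name STAR 2.3.0, HTSeq and the hg19 build. The annotation and the strand setting are not given in the sources used here. Reads were single-end QuantSeq reads from the 3′ end, so a change in the 3′ end used could change a count. GENCODE 29 named 45776 of the 47634 identifiers. Its coordinates, on GRCh38 and not hg19, were used only to find genes that overlap the members.

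Genes were kept with filterByExpr (11113 genes) and fitted in edgeR 4.0.16 (R 4.3.3) with TMM factors and a mean for each of 5 conditions over all 15 libraries, since the study's text used here states no count model. The quasi-likelihood p was adjusted by Benjamini and Hochberg over all genes tested, with a threshold of 0.05, in 6 tested comparisons. The prior count was 2. The method was tested on simulated data. Alternatives were RLE factors, library size only, no filter beyond 1 count, DESeq2 1.42.0, limma-voom (limma 3.58.1), the 6 libraries of a comparison alone, a replicate block, leaving out each library, and a mitochondrial rRNA covariate, which was added after seeing the data. Depth was 1510620 to 3517041 counts, so 3 counts stand for 0.853 to 1.99 CPM. No replicates of a condition agreed within sampling noise. Spread between replicates sets the p-values.

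The members and lists were chosen with earlier results of these data known. Named genes are the members, all SRF cofactors, from each other list and tested comparison up to 3 genes past the threshold with the smallest adjusted p, and the 3 genes most like SRF. No p-value is given for Amphotericin B comparisons because they chose the members. Promoter sequences are from RefSeq (GRCh38.p14), which had entries for 7 of 10 members. Some genes that these rules select are not reported here.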

Additional observations from a re-analysis of the deposited data

How the results depend on the processing

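Replicate numbers did not pair the libraries: deviations from the condition means correlated by 0.02 on average over 30 same-numbered pairs, 3 of them over 0.1, and by -0.0115 over 60 others, and 5 of 15 libraries correlated best with their own number. A replicate block as a term gave 2 members lower with Telmisartan than in untreated cells (1 without the block), 1 lower with Tranilast than with Telmisartan (0 without it), and 2 higher with Amphotericin B than with cisplatin (1 without it). Over all 11113 genes the block gave 1863 lower (1761 without it), 312 lower (195) and 523 higher (468) in these comparisons. The Amphotericin B count is a description only, because that comparison chose the genes.

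Calls of SRF, MYH9 and VCL with cisplatin against untreated cells held in all 23 settings, although the cisplatin libraries entered the choice of SRF. Counts of members called that moved by over 1.5 times were as follows. For cisplatin against untreated cells (all genes 2622 and 2345), library size only (3351 and 1019) and no filter beyond 1 count (2779 and 2213) each left 1 higher (from 2). The mitochondrial rRNA covariate (2722 and 2676), added after seeing the data, gave 6 lower (from 2) and 1 higher. For Tranilast against cisplatin (2 lower, 0 higher, all genes 1293 and 1169), library size only (397 and 2582) gave 0 lower and 2 higher. No filter (1233 and 1350) and DESeq2 (1674 and 1147) each gave 4 lower. Limma-voom (1253 and 1330) and the 6 libraries alone (963 and 813) each gave 1 lower, and the covariate (1528 and 1383) gave 1 lower and 2 higher. For Telmisartan against cisplatin (all genes 0 and 0), DESeq2 (42 and 13) and the covariate (198 and 135) each gave 1 lower. Amphotericin B against cisplatin (1 higher, all genes 1001 and 468) is a description only, because this comparison chose the genes. There library size only (850 and 242), DESeq2 (1057 and 755) and limma-voom (669 and 512) gave 2 higher. No filter (1316 and 622) gave 4, and the 6 libraries alone (66 and 23) and the covariate (380 and 159) gave 0. For Tranilast against untreated cells (1 lower, all genes 629 and 271), no filter (797 and 354) gave 5 lower and the covariate (1471 and 998) 6 lower. The 6 libraries alone (2119 and 1869) gave 6 lower and 1 higher. For Telmisartan against untreated cells (1 lower, all genes 1761 and 1423), library size only (2053 and 627), limma-voom (2007 and 1353) and the 6 libraries alone (1575 and 1565) gave 2 lower. No filter (1793 and 1460) gave 2 lower and 2 higher, DESeq2 (1768 and 1800) 1 higher, and the covariate (1973 and 1870) 6 lower and 1 higher. For Tranilast against Telmisartan (all genes 195 and 65), no filter (686 and 322) gave 4 lower, DESeq2 (795 and 279) 2 lower, and the covariate (102 and 287) 1 higher. The causes were not tested.

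Leaving out 1 library gave, for cisplatin against untreated cells, 2 to 3 lower and 1 to 2 higher, for Tranilast against cisplatin 1 to 4 lower and 0 to 2 higher, and for Telmisartan against cisplatin 0 to 1 lower and 0 to 2 higher. As a description only, because the comparison chose the genes, leaving out 1 library gave 0 to 6 higher for Amphotericin B against cisplatin. It gave 0 to 4 lower for Tranilast against untreated cells, 1 to 2 lower and 0 to 4 higher for Telmisartan against untreated cells, and 0 to 6 lower for Tranilast against Telmisartan. The largest of these counts came without cisplatin replicate 1 or Telmisartan replicate 3, and for Tranilast against cisplatin also without cisplatin replicate 3. Calls over all genes moved in these fits as well. Without cisplatin replicate 1 they were 1949 lower and 1885 higher of 11332 for Amphotericin B against cisplatin, and 1035 and 566 for Tranilast against untreated cells. Without cisplatin replicate 3 they were 1511 and 1360 of 11395 for Tranilast against cisplatin.

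Log2 differences that turned sign were, with library size only, ACTG1 -0.20 and TPM1 -0.31 for cisplatin against untreated cells, ACTG1 0.13 and CNN2 0.034 for Tranilast against cisplatin, ACTB -0.31 and TPM1 -0.094 for Telmisartan against untreated cells, SRF 0.35, MYH9 0.31, VCL 0.32, TPM1 0.24 and CNN2 0.042 for Tranilast against Telmisartan, and CNN2 -0.054 for Amphotericin B against cisplatin. With that scaling the median log2 difference of all genes was -0.36, 0.46, -0.27, 0.39 and -0.25 in these comparisons. With TMM factors it was -0.015, 0.023, -0.029, 0.052 and -0.035. With the covariate they were ACTG1 -0.32, TAGLN -1.14, MYL9 -0.72 and TPM1 -0.042 for cisplatin against untreated cells, ACTB 0.37, ACTG1 0.13 and MYL9 0.10 for Tranilast against cisplatin, ACTB -0.023, ACTG1 -0.26, TAGLN -0.12, CNN2 -0.12 and FLNA -0.22 for Amphotericin B against cisplatin, ACTG1 -0.042, TAGLN -0.11 and FLNA -0.14 for Telmisartan against cisplatin, ACTB -1.21, ACTG1 -0.36, TAGLN -1.25 and MYL9 -0.67 for Telmisartan against untreated cells, and ACTB 0.32, ACTG1 0.18, TAGLN 0.096, MYL9 0.052, MYH9 0.53, VCL 0.98 and FLNA 0.058 for Tranilast against Telmisartan. In other settings TPM1 was -0.057 with RLE and -0.056 with DESeq2 and -0.0017 in the 6 libraries alone for Tranilast against cisplatin, ACTB was -0.080 with limma-voom and -0.044 with the replicate block and FLNA 0.0050 with RLE, 0.0081 with DESeq2 and 0.047 in the 6 libraries alone for Telmisartan against untreated cells, and SRF was 0.012 without a filter for Tranilast against Telmisartan.

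Leaving out 1 library turned the sign of differences whose lowest and highest values were, for cisplatin against untreated cells, ACTB -0.81 to 0.014, ACTG1 -0.0080 to 0.34, TAGLN -0.41 to 0.96, MYL9 -0.15 to 0.90, TPM1 -0.034 to 0.092 and FLNA -0.42 to 0.13. For Tranilast against cisplatin TPM1 ran from -0.019 to 0.053, and against untreated cells from -0.027 to 0.099. For Telmisartan against cisplatin they were ACTB -0.020 to 0.89, ACTG1 -0.086 to 0.41, TAGLN -0.20 to 1.20, CNN2 -0.25 to 0.14 and FLNA -0.25 to 0.38, and against untreated cells ACTB -0.29 to 0.41 and FLNA -0.34 to 0.21. For Tranilast against Telmisartan they were SRF -0.069 to 0.083, MYH9 -0.27 to 0.097 and VCL -0.34 to 0.082. None of these had passed the threshold with all 15 libraries.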
